A study of Rattus norvegicus and Homo sapiens with 12 samples.

Results

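The BCL2 family decides whether a stressed cell keeps its mitochondria intact, and 10 of its genes were followed here in DU145, an established human prostate cancer cell line. The 10 genes were taken by symbol through their Ensembl identifiers, out of 60107 genes in the human count table, and all 10 had a row and passed the filter on low counts. They comprised 7 killers and 3 protectors. The killers were the effectors BAX and BAK1 and the BH3-only genes BCL2L11 (encoding BIM), BBC3 (PUMA), PMAIP1 (NOXA), BID and BAD. The protectors were BCL2L1 (BCL-xL), BCL2L2 (BCL-w) and MCL1.

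The study asked how mesenchymal stem cells (MSCs), stromal cells of the bone marrow, shape prostate cancer cells that they can kill. RNA QuantSeq was run on 12 libraries, of which the 6 of DU145 are used here and the others are of the rat line PAIII. F0 DU145 (n = 3) was the parental population, and F2 DU145 (n = 3) was the MSC-educated population that outlived 2 rounds of 72 h in conditioned medium of MSCs (MSC CM), which the series' design text gives as 3 rounds with 48 h of recovery. Both populations were grown in DMEM with 10% serum. Whether the 3 F2 samples came from separate selections is not stated, so that p-values measure the spread between these samples, which may be technical.

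Effectors, when freed, assemble into pores in the outer mitochondrial membrane, and cytochrome c then leaks out and switches on caspases. BH3-only proteins sense damage and either activate the effectors or occupy the protectors. Protectors hold both kinds of killer in a groove on their surface, and the short BH3 helix of the killer is what fits into that groove. BIM, PUMA and cleaved BID bind the protectors broadly, NOXA prefers MCL1, and BAD prefers BCL-xL and BCL-w.

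The coding bases of this BH3 stretch are shown because all 10 genes have such a stretch. The genes were taken by symbol and not by these bases, although the BH3-only group is named for this domain. Each stretch of 30 bases was read from the GENCODE release 29 transcripts on build GRCh38, 5′ to 3′ on the strand of the gene, and lay in a single coding exon. The motif searched was a leucine or methionine, then 3 residues of any kind, then a small residue (glycine, alanine or serine) and an aspartate, and capitals mark the codons of the leucine or methionine, of the small residue and of the aspartate.
BAX (chr19:48955781-48955810, plus strand): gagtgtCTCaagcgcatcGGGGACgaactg
BAK1 (chr6:33575393-33575422, minus strand): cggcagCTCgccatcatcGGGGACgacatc
BCL2L11 (chr2:111150097-111150126, plus strand): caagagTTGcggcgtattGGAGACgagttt
BBC3 (chr19:47226585-47226614, minus strand): gcccagCTGcggcggatgGCGGACgacctc
PMAIP1 (chr18:59902667-59902696, plus strand): actcaaCTCaggagatttGGAGACaaactg
BID (chr22:17739421-17739450, minus strand): aggcacCTCgcccaggtcGGGGACagcatg
BAD (chr11:64271628-64271657, minus strand): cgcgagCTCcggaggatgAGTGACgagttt
BCL2L1 (chr20:31721928-31721957, minus strand): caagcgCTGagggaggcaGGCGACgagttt
BCL2L2 (chr14:23307897-23307926, plus strand): caagccATGcgggcagctGGAGATgagttc
MCL1 (chr1:150578871-150578900, minus strand): gagaccTTAcgacgggttGGGGATggcgtg

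The first marked codon encoded leucine in every gene except BCL2L2, where it encoded methionine, and the small residue was glycine except in BBC3 (alanine) and BAD (serine). The aspartate codon was GAC in the killers and in BCL2L1, and GAT in BCL2L2 and MCL1. Against the stretch of BCL2L11, BAD shared 21 of 30 bases, BCL2L1 and BCL2L2 20, BBC3 18, BAX, PMAIP1 and MCL1 15, BAK1 14, and BID 10. The motif occurred once in each protein, apart from BID with 2 matches, of which the BH3 match is shown. QuantSeq reads a fragment near the 3′ end of a transcript, and of these stretches that of PMAIP1 alone lay within the gene's last exon. The counts therefore do not separate splice forms such as the long and short forms of BCL-x, MCL1 or BIM.

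In F2, 4 of the 10 genes passed the threshold, which was an adjusted p under 0.05 in edgeR's quasi-likelihood test over 14316 genes. PMAIP1, BCL2L1 and MCL1 were higher and BBC3 was lower, with TMM scaling of the libraries (a scaling that assumes most genes do not change). Of all tested genes 18.2% passed, 9.49% higher and 8.67% lower, against which the members had 3 higher and 1 lower of 10. The median log2 fold change was 0.13 over the members and -0.0025 over all tested genes. The libraries of F0 and F2 did not overlap for 6 of the 10 members, as against 34.0% of all tested genes. These 6 were the 4 genes past the threshold, together with BCL2L11 and BAD, both lower in F2.

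The depth was even, at 15879480 to 16479239 gene counts per library, and the 10 members together took 0.0809% to 0.0837% of the counts in F0 and 0.0846% to 0.0867% in F2. Mitochondrially encoded genes rose from 5.71% to 6.003% of counts in F0 to 10.2% to 10.6% in F2. The part of this share in the members' changes was not tested. A fit without those genes kept TMM scaling, which already assumes that most genes do not change, so it cannot decide this. In that fit 4 members again passed, with MCL1 at a log2 fold change of 0.189 against 0.188. Library size alone was not run without those genes. All 5 epithelial markers were detected, with a summed level of 1025 to 1097 CPM (counts scaled to the size of the library, with TMM) in F0 and 1325 to 1334 CPM in F2; of these, CDH1 was lower in F2 and the other 4 were higher. The 10 MSC markers summed to 5.67 to 6.96 CPM in F0 and 3.63 to 4.86 CPM in F2, with 5 of 10 at 0 in all libraries (THY1, LUM, POSTN, CXCL12 and SPARC). LEPR (mean 3.16 CPM in F0, 2.36 CPM in F2) and COL1A1 (2.38 and 1.86 CPM) made up most of the sum. Both passed the filter on low counts, and neither passed the threshold. F2 was selected in conditioned medium, so these sums are a description and not a test for MSCs in the culture. In bulk RNA, fewer cells that express a gene and less RNA of it per cell cannot be told apart.

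**Figure D1:**
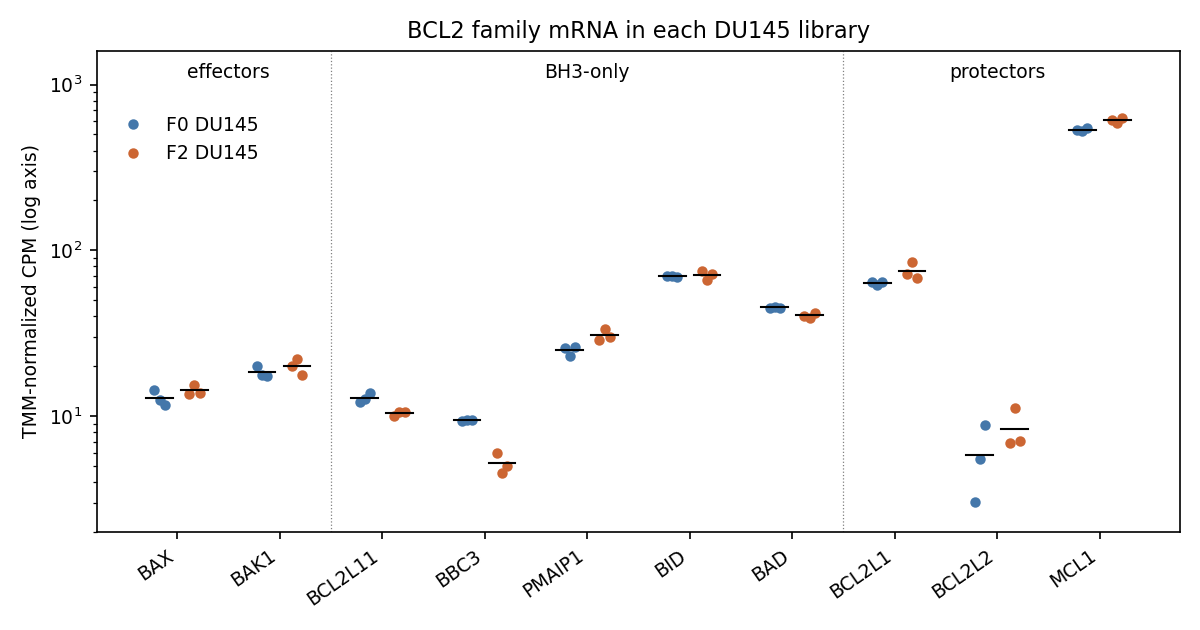
TMM-normalized CPM (log axis) of the 10 genes in each of the 3 F0 and 3 F2 DU145 libraries, with bars at the mean of 3. BBC3 lay at 9.27 to 9.51 CPM in F0 and 4.55 to 6.01 CPM in F2, MCL1 stood above all the other members in both populations, and BCL2L2 spread 2.95-fold among the F0 libraries.

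QuantSeq gives about 1 fragment per transcript, so the level of a gene does not scale with its length and levels of different genes can be set side by side in CPM, apart from unequal capture of their 3′ ends. By mean CPM in F0 the order was MCL1 (534), BID (69.6), BCL2L1 (63.6), BAD (45.2), PMAIP1 (25.03), BAK1 (18.3), BCL2L11 (12.9), BAX (12.8), BBC3 (9.42) and BCL2L2 (5.80). Among neighbours in that order, the libraries of BCL2L11 and BAX overlapped and all other neighbours were apart. In F2 the order differed in 3 places. BCL2L1 came before BID, BAX before BCL2L11, and BCL2L2 before BBC3, although BCL2L1 and BID overlapped in F2, as did BCL2L11 and BCL2L2.

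The effectors showed no change past the threshold. BAX, on chromosome 19 (48954815 to 48961798, plus strand), read 14.3, 12.5 and 11.7 CPM in F0 replicates 1 to 3 and 13.5, 15.5 and 13.8 CPM in F2. The populations overlapped, and the log2 fold change of 0.15 had a 95% interval from -0.079 to 0.38 (adjusted p = 0.383). DU145 has been described as lacking BAX protein, and a count of mRNA does not address this. BAK1, on chromosome 6 (33572547 to 33580293, minus strand), encodes the effector that sits on mitochondria already in healthy cells. Its level was 20.0, 17.6 and 17.5 CPM in F0 and 19.9, 22.2 and 17.6 CPM in F2. These also overlapped, with a log2 fold change of 0.12 (95% interval -0.092 to 0.33, adjusted p = 0.466).

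Among the BH3-only genes, BBC3 fell and PMAIP1 rose, and the other 3 did not pass the threshold. BBC3 (chromosome 19, 47220822 to 47232766, minus strand) encodes PUMA, a strong killer that p53 and FOXO factors are known to induce. Its counts were 157, 157 and 160 in F0 and 94, 70 and 78 in F2, or 9.27, 9.51 and 9.47 CPM against 6.01, 4.55 and 4.97 CPM. The highest F2 library lay well under the lowest F0 library, and the F0 libraries were nearly equal. The log2 fold change was -0.86 (SE 0.14, 95% interval -1.15 to -0.57, adjusted p = 1.95e-04, edgeR), and F2 held 0.550 of the F0 level. BBC3 stayed past the threshold in each of 6 fits that left out a library (-0.98 to -0.77) and in each of 7 other fits.

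PMAIP1 (chromosome 18, 59899948 to 59904306, plus strand) encodes NOXA, which marks MCL1 for destruction. It read 25.8, 23.1 and 26.2 CPM in F0 and 28.8, 33.4 and 29.8 CPM in F2, so that this killer moved opposite to BBC3 and all 3 F2 libraries lay above all 3 F0 libraries. The log2 fold change was 0.29 (SE 0.083, 95% interval 0.12 to 0.47, adjusted p = 0.0180, edgeR). PMAIP1 no longer passed without F0 replicate 2 (0.24, adjusted p = 0.118), without F2 replicate 2 (0.23, adjusted p = 0.0723), or with library size alone as the scaling (0.20, adjusted p = 0.0831).

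BCL2L11 (chromosome 2, 111119378 to 111168447, plus strand) encodes BIM, which can activate effectors directly. Its level was 12.2, 12.7 and 13.8 CPM in F0 and 10.0, 10.6 and 10.5 CPM in F2. The populations were apart, yet the gene stood at the edge of the threshold, with a log2 fold change of -0.31 (SE 0.11, 95% interval -0.54 to -0.087, adjusted p = 0.0505). It passed with library size alone (-0.40, adjusted p = 0.0105) and without F0 replicate 1 (-0.36, adjusted p = 0.0477). Of its last exon 16.8% was shared with MIR4435-2HG on the opposite strand, whose log2 fold change was 0.25 (adjusted p = 0.00398), and whether the counting used strand is not given in the sources used here.

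BAD (chromosome 11, 64269830 to 64284704, minus strand), which 14-3-3 proteins hold in the cytosol when it is phosphorylated, read 45.1, 45.6 and 45.1 CPM in F0 and 40.3, 39.2 and 41.7 CPM in F2. The populations were apart, with a small difference of -0.16 on the log2 scale (SE 0.063, 95% interval -0.29 to -0.031, adjusted p = 0.0818), which passed with library size alone (-0.25, adjusted p = 0.00624). GPR137 on the opposite strand shared 54.3% of the last exon of BAD and was itself lower in F2 (-0.23 on the log2 scale, adjusted p = 0.0425). If strand was not used, reads of the shared stretch would be ambiguous and count for neither gene. BID (chromosome 22, 17734138 to 17774770, minus strand), which caspase 8 cleaves into its active form, was the most abundant BH3-only mRNA. It read 70.1, 69.6 and 69.1 CPM in F0 and 75.3, 66.3 and 72.1 CPM in F2. These overlapped (log2 fold change 0.034, 95% interval -0.087 to 0.15, adjusted p = 0.742), and the sign turned with library size alone (-0.056).

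**Figure D2:**
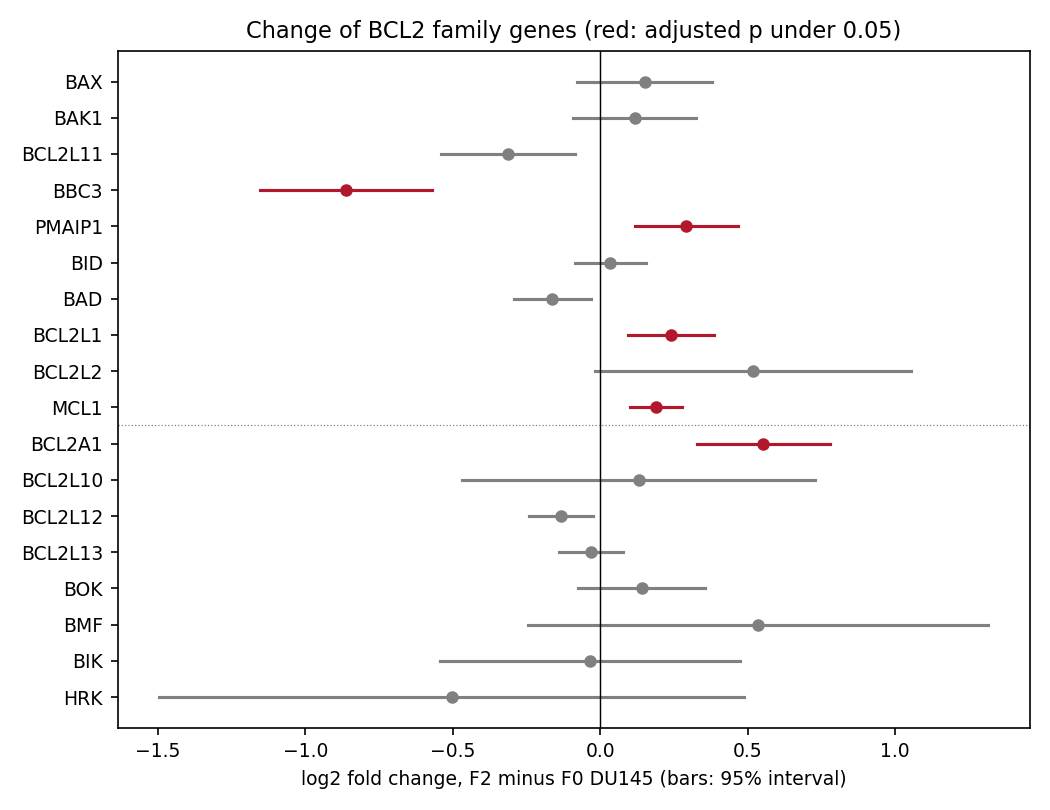
Log2 fold change of F2 against F0 DU145 with its 95% interval for the 10 genes (upper part) and the 8 other BCL2 family genes that could be tested (lower part), with TMM scaling and 3 libraries per population. Red marks an adjusted p under 0.05, which held for BBC3 (-0.86), PMAIP1, BCL2L1, MCL1 and BCL2A1; with library size alone PMAIP1, BCL2L1 and MCL1 did not pass and BID changed sign.

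Among the protectors MCL1 rose 1.14-fold and BCL2L1 1.18-fold in F2, next to a rise of 1.22-fold for PMAIP1 among the killers. MCL1 (chromosome 1, 150574551 to 150579738, minus strand) encodes a short-lived protector, and its mRNA was the most abundant of the 10. It read 530, 527 and 545 CPM in F0 and 610, 584 and 631 CPM in F2, from 8706 to 9203 counts per library in F0 and 8999 to 9891 in F2. The populations were apart after TMM scaling, with a log2 fold change of 0.19 (SE 0.043, 95% interval 0.099 to 0.28, adjusted p = 0.00403, edgeR). It kept its call in each of 6 fits that left out a library (0.16 to 0.22) and lost it with library size alone (0.098, adjusted p = 0.0953).

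BCL2L1 (chromosome 20, 31664452 to 31723989, minus strand) encodes the stable protector BCL-xL. Its level was 64.8, 61.8 and 64.3 CPM in F0 and 72.3, 85.1 and 68.0 CPM in F2. The F2 libraries all lay above F0, with F2 replicate 2 farthest from it, at a log2 fold change of 0.24 (SE 0.070, 95% interval 0.093 to 0.38, adjusted p = 0.0213, edgeR). Without that library the change was 0.14 (adjusted p = 0.108), without F0 replicate 2 it was 0.22 (adjusted p = 0.111), and with library size alone it was 0.15 (adjusted p = 0.132).

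BCL2L2 (chromosome 14, 23298790 to 23311759, plus strand), encoding BCL-w, was the scarcest protector, and its libraries disagreed the most. The counts were 51, 91 and 150 in F0 and 107, 171 and 110 in F2, and the exact Poisson 95% intervals of 51 (38.0 to 67.1) and 150 (127 to 176) did not meet, so the F0 libraries differed by more than counting error. The populations overlapped and the log2 fold change of 0.52 had an interval from -0.016 to 1.05 (adjusted p = 0.177). The change was 0.97 (adjusted p = 0.0119) without F0 replicate 3 and 0.21 without F0 replicate 1. The gene shared 813 exonic bases, but none of its last exon, with the readthrough gene BCL2L2-PABPN1 on the same strand. The readthrough had at most 2 counts per library, but reads that fit 2 genes are set aside as ambiguous, so this does not measure its level. BCL2L2 also shared 206 exonic bases with PPP1R3E on the opposite strand (log2 fold change 0.47, adjusted p = 0.0457). Of the other last exons, that of MCL1 shared 0.068% with ADAMTSL4-AS1 and those of BAX, BAK1, BBC3, PMAIP1, BID and BCL2L1 shared none with another annotated gene.

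The scaling matters for the 3 rises. With library size alone, the median of all tested genes moved to -0.092 and 3 members passed, all lower in F2 and none higher, whereas the TMM and median-ratio scalings each gave 3 higher and 1 lower. A ratio of 2 genes counted in the same library does not depend on scaling, and such ratios of protector to killer counts were therefore formed in each library.

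Protector counts per BH3-only count were higher in F2. The ratio of summed counts was 3.68, 3.70 and 3.77 in F0 and 4.29, 4.42 and 4.43 in F2, that is 3.72 ± 0.0488 against 4.38 ± 0.0780 (SD, n = 3). The populations were apart by 0.24 on the log2 scale, a difference of 17.8%, while counting error gave an SD of 0.031 to 0.033 for a single library. The exact permutation test, two-sided, gave p = 0.1, which is the smallest value that 3 libraries against 3 allow (0.15 after Benjamini-Hochberg adjustment over the 3 summed ratios).

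The raw counts of the numerator were higher and those of the denominator lower in F2. The 3 protectors summed to 10118, 9818 and 10439 counts in F0 and 10772, 10480 and 11067 in F2, and the 5 BH3-only genes to 2751, 2650 and 2767 against 2510, 2372 and 2496. How the shift divides between them depends on the scaling. After TMM scaling the protectors summed to 595 to 618 CPM in F0 and 681 to 706 CPM in F2, while the BH3-only genes summed to 160.5 to 164 CPM in F0 and 154 to 160.5 CPM in F2. Since MCL1 made up 88.5% ± 0.291 of the protector counts in F0 and 87.9% ± 1.83 in F2 (SD, n = 3), the sum of protectors is mostly MCL1. Without MCL1, BCL2L1 and BCL2L2 per BH3-only count went from 0.428 ± 0.0163 to 0.529 ± 0.0829, a difference of 0.30 on the log2 scale. F2 replicate 2 stood apart there (0.624, against 0.493 and 0.471 in the other F2 libraries), and without it the difference was 0.17.

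Against the effectors the ratio overlapped between the populations. It was 17.4, 19.7 and 21.2 in F0 and 20.6, 18.1 and 22.4 in F2. The log2 difference was 0.067 (exact permutation p = 0.6, n = 3 each), 0.21 with geometric means and 0.13 without MCL1, and the effector sum rested on 492 to 581 counts per library. Over all 7 killers together the ratio was 3.04, 3.12 and 3.20 in F0 and 3.55, 3.55 and 3.70 in F2, apart by 0.21 on the log2 scale or 15.5% (exact permutation p = 0.1, n = 3 each, adjusted 0.15).

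**Figure D3:**
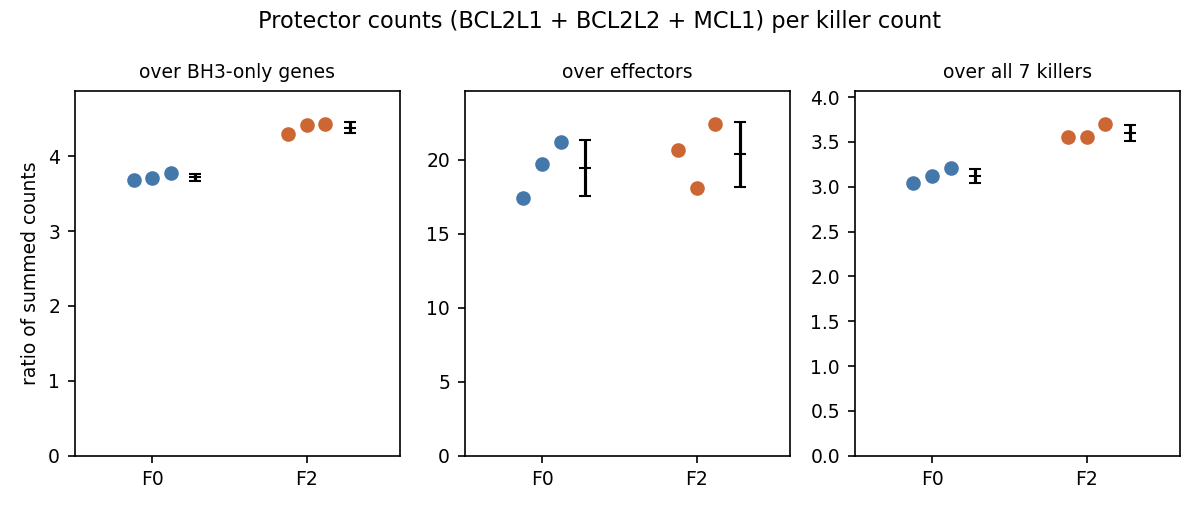
Summed counts of BCL2L1, BCL2L2 and MCL1 per summed count of the 5 BH3-only genes, of the 2 effectors and of all 7 killers, in each DU145 library (points), with mean ± SD of 3 libraries in black. The F2 libraries lie above F0 for the BH3-only genes (4.29 to 4.43 against 3.68 to 3.77) and for all killers, and overlap F0 for the effectors.

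Within the BH3-only counts the make-up differed between the F0 and F2 libraries. BBC3 went from 5.80% ± 0.110 to 3.27% ± 0.417 of these counts and PMAIP1 from 15.4% ± 0.909 to 19.4% ± 1.97 (SD, n = 3), with no overlap for either. BCL2L11 went from 7.96% ± 0.485 to 6.58% ± 0.310 and BAD from 27.9% ± 0.460 to 25.6% ± 0.545, again without overlap. For each of these shares the exact permutation p was 0.1, the smallest value that 3 libraries against 3 allow. Of all tested genes 34.0% did not overlap either, and of the ratios of all gene pairs 33.4%. BID held 42.9% ± 0.618 in F0 and 45.1% ± 1.95 in F2, which overlapped. Shares of a sum are tied to each other, and the larger share of PMAIP1 leaves less for the rest.

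**Figure D4:**
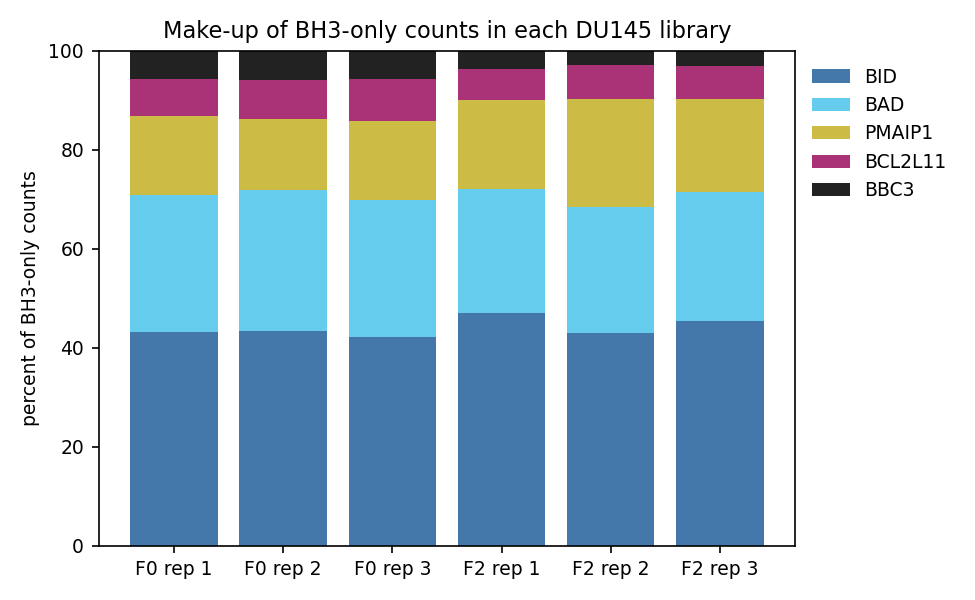
Percent of the summed BH3-only counts from each of the 5 genes, in each of the 6 DU145 libraries. BBC3 took 5.71% to 5.92% in F0 and 2.95% to 3.75% in F2, and PMAIP1 took 14.4% to 16.0% in F0 and 17.9% to 21.7% in F2.

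Each of the 3 protectors was also set against each of the 7 killers. Of these 21 ratios, which reuse the same 10 genes and so are not independent, 10 did not overlap between F0 and F2, all higher in F2. Among all pairs drawn from the 13255 tested genes that reached 10 counts in each library, 33.4% of ratios did not overlap. The exact permutation p was at least 0.1 and the smallest adjusted value over the 21 was 0.21. Ratios to BBC3 had the highest differences for each protector. MCL1 per BBC3 count went from 56.7 ± 1.10 to 119 ± 15.2 (log2 difference 1.06), and BCL2L1 per BBC3 count from 6.76 ± 0.243 to 14.8 ± 3.49 (1.11).

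Against BCL2L11, MCL1 went from 41.4 to 58.6 counts per count (log2 difference 0.50), against BAD from 11.8 to 15.0 (0.35), and against BID from 7.67 to 8.55 (0.16). The libraries of F0 and F2 did not overlap for any of these 3. Among the BH3-only genes, PMAIP1 was the only one whose ratio to MCL1 overlapped. MCL1 per PMAIP1 count was 21.4 ± 1.28 in F0 and 19.9 ± 2.11 in F2 (log2 difference -0.10, exact permutation p = 0.6, n = 3 each), and that of BCL2L1 was 2.55 against 2.45 (-0.059). Both overlapped between the populations, as did the ratio of BCL2L2 to PMAIP1, which was higher in F2 (0.33). The effectors overlapped too, for MCL1 per BAX count (0.034) and per BAK1 count (0.074). The same held for BCL2L1 per BAX count (0.079) and per BAK1 count (0.12).

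**Figure D5:**
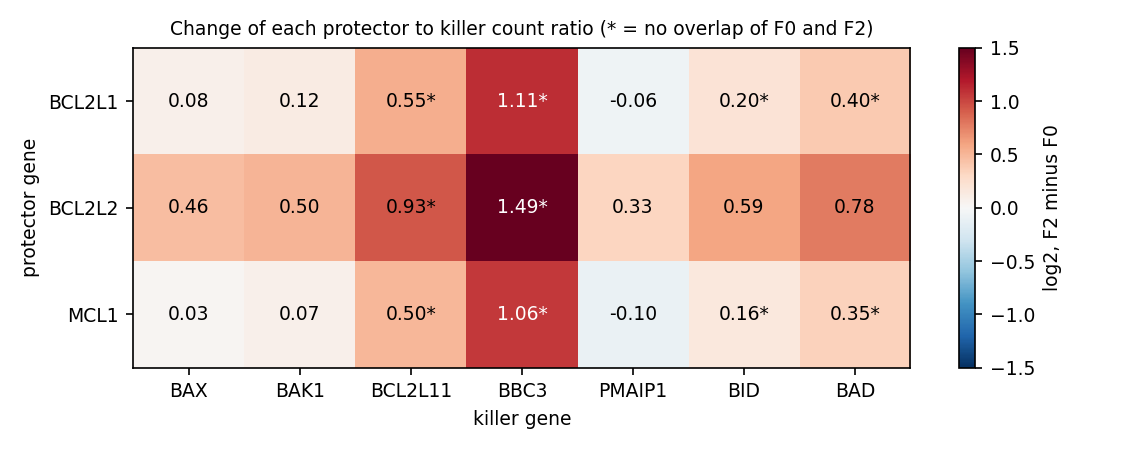
Log2 difference (F2 minus F0 DU145, 3 libraries each) of the count ratio of each protector (rows) to each killer (columns), with a star where the libraries of F0 and F2 do not overlap. The column of BBC3 holds the highest values, from 1.06 for MCL1, and the ratios of MCL1 and BCL2L1 to PMAIP1 lie under 0.

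Of 11 further BCL2 family genes, 8 could be tested and only BCL2A1 passed (18.2% of all tested genes passed), with a median log2 fold change of 0.049 over the 8. BCL2A1 encodes a protector that NF-kappaB is known to induce. It read 10.7, 12.4 and 10.7 CPM in F0 and 15.9, 15.5 and 18.1 CPM in F2, with a log2 fold change of 0.55 (SE 0.11, adjusted p = 0.00116, edgeR), and it passed with every scaling. With BCL2A1 among the protectors, a choice made after its rise was seen, the ratio to BH3-only counts was 3.79 in F0 and 4.49 in F2. The log2 fold changes of the others were -0.13 for BCL2L12, -0.032 for BCL2L13, 0.14 for BOK, 0.13 for BCL2L10, 0.54 for BMF, -0.035 for BIK and -0.50 for HRK, none past the threshold. BCL2 itself was near its detection limit, with 4 to 9 counts per library, BCL2L15 had 1 to 5 counts, and BCL2L14 had none.

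Genes that act with, after or on the members were counted in 3 lists. Of 9 caspases, pore-released factors and their regulators, among them CASP8, which acts before the pore, CASP9 alone passed. CASP9, the initiator caspase of the apoptosome, fell from 7.97, 9.69 and 10.0 CPM in F0 to 6.84, 4.61 and 4.78 CPM in F2 (log2 fold change -0.77, SE 0.16, adjusted p = 0.00201, edgeR). Thus 1 of 9 passed, against 18.2% of all genes, with a median log2 fold change of 0.048.

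Of 12 genes for turnover or binding of the members, 2 rose and 1 fell (median 0.058), against 18.2% of all tested genes past the threshold. SFN and YWHAE, 14-3-3 proteins of the family that binds phosphorylated BAD, had log2 fold changes of 0.29 (adjusted p = 1.20e-04) and 0.14 (adjusted p = 0.0193), the latter not past with library size alone (0.049, adjusted p = 0.395) and past in 2 of 6 fits that left out a library. YWHAE was lost without F0 replicate 1, F0 replicate 2, F2 replicate 1 or F2 replicate 3 (adjusted p from 0.0515 to 0.0982). HUWE1, a ubiquitin ligase that targets MCL1, was at -0.23 (adjusted p = 0.0151) and did not pass without F0 replicate 2, F2 replicate 1 or F2 replicate 3 (adjusted p from 0.0676 to 0.1001).

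Of 14 transcriptional regulators of the family, 13 were tested, of which 3 rose and 2 fell (median -0.0093), where 9.49% of all tested genes were higher and 8.67% lower. JUN, an AP-1 subunit, rose by 0.82 on the log2 scale (SE 0.048, adjusted p = 3.18e-10, edgeR), from 105 to 111 CPM in F0 to 187 to 197 CPM in F2. FOXO3, a factor known to induce BIM and PUMA, was at 0.36 (adjusted p = 0.00416) and E2F1, which can induce several BH3-only genes, at 0.27 (adjusted p = 0.0121), the latter not past with library size alone (0.18, adjusted p = 0.0730), without F0 replicate 2 (0.26, adjusted p = 0.0627) or without F0 replicate 3 (0.20, adjusted p = 0.0766). STAT3 fell by 0.23 (adjusted p = 7.63e-04) on the log2 scale. TP73, a relative of p53, was scarce, with 19, 25 and 26 counts in F0 and 3, 7 and 1 in F2 (log2 fold change -2.52, adjusted p = 8.65e-04). TP63 had no counts. The part of these genes in the changes of the members was not tested.

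The genes whose log2 levels ran closest to BBC3 over the 6 libraries, among 8650 genes with a mean of at least 10 CPM, were ATP5MC2, NEIL2 and TP53BP1 (Pearson r = 0.997, 0.997 and 0.996). For MCL1 they were UFM1, RPS21 and DNAJC3 (r = 0.998, 0.997 and 0.997). The 6 points form 2 populations, so that a gene apart between F0 and F2 reaches a high r, and the values are a description only.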

How the data were processed

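RNA QuantSeq (3′ end) libraries of DU145 were analysed, 3 F0 and 3 F2. The authors deposited raw counts per gene, with no normalization. The processing notes of the submitters name STAR 2.5.2a, HTSeq 0.6.0 and build GRCh38. The annotation and the use of strand are not given in the sources used here. All other values were computed here. Reads outside genes (9.60% to 11.9% of reads in genes, outside genes and ambiguous together) and ambiguous reads (1.36% to 1.50%) stayed out of library sizes. Of 60107 identifiers, 56104 had a symbol and 56531 were in GENCODE release 29.

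After filterByExpr (min.count 10, min.total.count 15), TMM factors were set and F2 was compared with F0 by the quasi-likelihood test of edgeR 4.0.16 in R 4.3.3, with Benjamini-Hochberg adjustment over 14316 genes. DESeq2 1.42.0, 2 other scalings, 2 filters, leaving out each library or the mitochondrially encoded genes, and a replicate block were alternatives. Two-sided exact permutation tests of log2 ratios used SciPy 1.17.1. Intervals of single counts cover counting error only. The edgeR test was tried on simulated counts with the dispersions of these data. For the ratios, simulated counts with counting error alone checked only that a known log2 difference was recovered. The permutation test was not run on simulated counts.

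All 10 members were named. Of the other lists, genes past the threshold, every tested gene of the BCL2 family, and the 3 genes most like each of the 2 members with the lowest adjusted p were named; genes that share exons with a member were added. The members and lists were chosen with earlier results of these data known. Over all tested genes, no F0 and F2 libraries of the same number deviated together (correlations 0.036, -0.015 and 0.045), so the numbers were not taken as pairs. With a replicate block 2867 genes passed, against 2599 without it. Log2 ratio differences between same-numbered libraries had an SD of 0.0160 for BH3-only genes, 0.186 for effectors and 0.0198 for all killers. Within F0 and F2 the SDs were 0.0189 and 0.0258, 0.144 and 0.158, and 0.0385 and 0.0347. The rat PAIII table was not used here for these genes, since its identifiers could not be paired with symbols. Some listed genes are not reported here.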

Additional observations from a re-analysis of the deposited data

How the results depend on the processing

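BBC3 kept its call under all alternatives, and no alternative reversed a called member. The count of members past the threshold was 4 with TMM and ranged from 2 to 5 when a library was left out; it was 2 without F0 replicate 2 and without F2 replicate 2, where PMAIP1 and BCL2L1 were lost. It was 4 with median-ratio scaling, with a stricter count filter, without mitochondrially encoded genes and with DESeq2, 3 with library size alone, and 5 with no filter, where BCL2L2 passed (0.52, adjusted p = 0.00662). BID, never called, changed sign with library size alone (-0.056) and without F2 replicate 1 (-0.0065), and leaving out a library moved it between -0.0065 and 0.085. The causes were not tested.

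With a replicate block 5 members passed, BCL2L11 being added (-0.31, adjusted p = 0.0481), and the mean ratio differences were by construction those without it (0.24, 0.067 and 0.21 for BH3-only genes, effectors and all killers). The difference of the protector to BH3-only ratio was 0.55 with geometric means, which weight each gene alike, the scarce BCL2L2 included. It was 0.23 without BCL2L2, 0.30 without MCL1 and 0.19 without BAD. Chosen after seeing the data, it was 0.28 over BCL2L11, BBC3 and BID alone and 0.17 without both MCL1 and F2 replicate 2. The difference of the ratio to all killers was 0.45 with geometric means, 0.20 without BCL2L2, 0.27 without MCL1 and 0.16 without BAD. That of the ratio to effectors was 0.21 with geometric means, 0.063 without BCL2L2 and 0.13 without MCL1. Leaving out a library gave 0.23 to 0.25 for BH3-only genes, 0.19 to 0.23 for all killers and -0.011 to 0.15 for effectors, the last reversing without F0 replicate 1 (-0.011) and without F2 replicate 3 (-0.0056). With 3 libraries a population the ratio tests could not go below 0.1. BBC3 and BCL2L2, at 51 to 171 counts per library, are the least precisely counted members.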
